A study of Mus musculus with 6 samples.

Results

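The interferon response genes described here are 43 genes that cells switch on when an interferon reaches them. They were taken from a list of 44 such genes as those with a column in the count table, which holds 15473 genes, and the absent gene is Mx1. Interferons are cytokines, and each binds a cell-surface receptor whose Janus kinases phosphorylate STAT proteins. After a type I interferon, a complex that holds STAT2 and IRF9 binds the interferon-stimulated response element of antiviral genes, whereas interferon gamma acts on gamma-activated sites. In the gut such genes are known to be set at a low tonic level by the microbiota, and T cells both make and sense interferon gamma. By role, the 43 genes comprised 4 transcription factors, 19 antiviral effectors, 4 oligoadenylate synthetase (OAS) genes, 3 RNA helicase sensors, 4 Schlafen genes, 4 PYHIN genes and 5 GTPase genes.

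The cells were CD4 T cells sorted from the mouse colonic lamina propria in a study of what peripherally induced regulatory T cells do with and without the transcription factor Foxp3. Both sorted gates came from mice that were Foxp3{delta}EGFPiCre/WT and also R26lsl-tdTomato/wt, so that each animal carried 1 modified Foxp3 allele beside 1 wild-type allele and 1 Cre-dependent tdTomato allele. GFP marks transcription of the modified allele at the time of the sort, and tdTomato marks cells in which its Cre has acted, so the gates are defined by the Foxp3 locus and not by a treatment. The 2 gates were tdTomato+GFP+ and tdTomato-GFP-, each with 3 biological replicates that were tagged with hashtag antibodies and run together on 1 lane of a 10x Chromium instrument. The labels used here give no age, and gate and lane cannot be told apart.

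To show what the promoters of the genes that carry the results look like, 50 or 49 bases around 1 match in each of 11 promoter windows were read from RefSeq (GRCm38.p6), written in the gene's own direction. A window ran from 250 bases before to 50 bases after the annotated start. The capitals mark the core letters of the interferon-stimulated response element, GAAA, any 2 bases and GAAA, or the same core read on the other strand, TTTC, any 2 bases and TTTC. In Irf1 they mark the letters of the gamma-activated site, TTC, any 3 bases and GAA.
Ifi206, chr1:173491329-173491378, minus strand: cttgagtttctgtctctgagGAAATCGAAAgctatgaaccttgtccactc
Ifi213, chr1:173599316-173599365, minus strand: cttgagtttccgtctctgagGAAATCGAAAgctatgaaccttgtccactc
Ifi203, chr1:173942498-173942547, minus strand: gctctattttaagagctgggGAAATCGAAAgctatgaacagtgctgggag
Oas3, chr5:120777705-120777754, minus strand: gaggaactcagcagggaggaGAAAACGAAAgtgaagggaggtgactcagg
Isg15, chr4:156200861-156200910, minus strand: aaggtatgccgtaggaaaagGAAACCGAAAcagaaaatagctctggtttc
Ifit3, chr19:34583353-34583402, plus strand: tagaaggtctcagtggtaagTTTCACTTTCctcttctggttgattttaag
Ifit3b, chr19:34607749-34607798, plus strand: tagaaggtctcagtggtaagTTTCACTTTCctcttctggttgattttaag
Igtp, chr11:58199502-58199551, plus strand: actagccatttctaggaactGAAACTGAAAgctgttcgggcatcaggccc
Gbp7, chr3:142530263-142530312, plus strand: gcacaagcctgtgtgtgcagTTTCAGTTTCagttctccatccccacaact
Slfn5, chr11:82951927-82951976, plus strand: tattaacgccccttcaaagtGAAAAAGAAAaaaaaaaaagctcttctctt
Irf1, chr11:53769904-53769952, plus strand: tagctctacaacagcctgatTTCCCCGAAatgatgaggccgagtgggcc

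These stretches are shown because their genes differ between the cells compared below or are near copies of each other. The Ifi206 and Ifi213 stretches had 49 of 50 bases in common, whereas the Ifi203 stretch had 29 of 50 in common with each of them. The Ifit3 and Ifit3b stretches had 50 of 50 in common. These are promoter bases and not part of the counted transcripts. Ifit3 with Ifit3b, the PYHIN genes and the Schlafen genes belong to families of related copies, and their values are uncertain because how reads shared between copies were assigned was not tested. Of the 36 genes with a window, 23 (63.9%) held the response element core on either strand, against 1131 of 32851 windows (3.44%) over all genes. The 36 genes had 44 windows, and a gene counted if any of its windows matched. Shares by gene and by window thus have unlike units, here and for the gamma-activated site. The letters of the gamma-activated site, which read the same on both strands, lay in 9 of the 36 (25.0%) against 2726 windows (8.30%). No window was matched for Rtp4, Usp18, Zbp1, Gbp4, Ifi27l2a, Dhx58 and Parp14. A match describes the letters only. Several of the genes are neighbours: the 4 PYHIN genes lay within chr1:173468485-173942672, the IFIT genes within chr19:34583531-34650009, the Schlafen genes within chr11:82951349-83122670 and Gbp2 and Gbp7 within chr3:142530342-142638008 (GRCm38), while Gbp4 lay on chromosome 5.

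The count table held 23595 cells, of which 18874 were assigned to a replicate, with 5159, 3114 and 1836 cells making the 10109 of the tdTomato-GFP- gate and 1747, 4610 and 2408 making the 8765 of the tdTomato+GFP+ gate. Without the hashtag columns, the summed unique molecular identifiers (UMIs) per replicate ran from 7424984 to 23289046, and the median was 3860 UMIs a cell for tdTomato-GFP- and 3632 for tdTomato+GFP+. The lanes shared 174 cell barcodes, 106 of them among assigned cells. Levels are given as CPM, UMI counts scaled to the library total. All 6 CD4 T cell markers were present, with a summed level of 3789 to 4139 CPM in the tdTomato-GFP- replicates and 4822 to 5226 CPM in the tdTomato+GFP+ replicates. The gates differed in make-up. The 7 Th17 markers summed to 2272 to 2807 CPM against 12854 to 17239 CPM, the 6 naive and central memory markers to 1780 to 2195 CPM against 696 to 793 CPM, and the 5 Th1 markers to 1026 to 1080 CPM against 163 to 476 CPM. Summed levels of the 8 B and plasma cell markers, 888 to 2363 CPM against 466 to 2478 CPM, overlapped. The authors' phenograph clusters are called by their numbers. Cluster 5, with Foxp3 at 751 CPM and Ikzf2 at 475 CPM, held on average 14.4% of tdTomato-GFP- cells and 1.84% of tdTomato+GFP+ cells, cluster 9, with Ccr7 at 1912 CPM, held 7.66% against 0.633%, and cluster 1, with Il17a at 23181 CPM, held 2.81% against 24.6%.

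Interferon response genes were lower in the tdTomato+GFP+ gate than in the tdTomato-GFP- gate. Of the 41 with enough counts to test, 22 were lower and 0 were higher at an adjusted p below 0.05, in edgeR's quasi-likelihood test on UMI sums per replicate with Benjamini-Hochberg adjustment over all 11933 genes tested. Over all genes tested, 13.4% were lower and 13% were higher. Replicates of the gates did not overlap for 26 of the 41 (63.4%) as lower and 1 (2.44%) as higher, against 21.5% and 21.6% of all genes tested. Separation of the replicates in a single gene was thus common. The median log2 fold change of the 41, called log2 ratio beside single genes, was -0.40, against -0.00 over all genes, and 38 of the 41 values were below 0. At an unadjusted p below 0.05, 29 of the 41 passed in either direction, against 37.5% of all genes. The largest log2 fold changes were those of Oasl1, Ifi213 and Usp18, and the genes with the most UMIs, Ifi27l2a, Samhd1 and Irf1, were not among the 22. Ifit3b and Ifi44 had too few counts to test. In these sums over all cells of a gate, fewer cells of a type and less RNA per cell cannot be told apart, and the part played by the differing cluster and marker levels given above was not tested in this comparison.

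**Figure D1:**
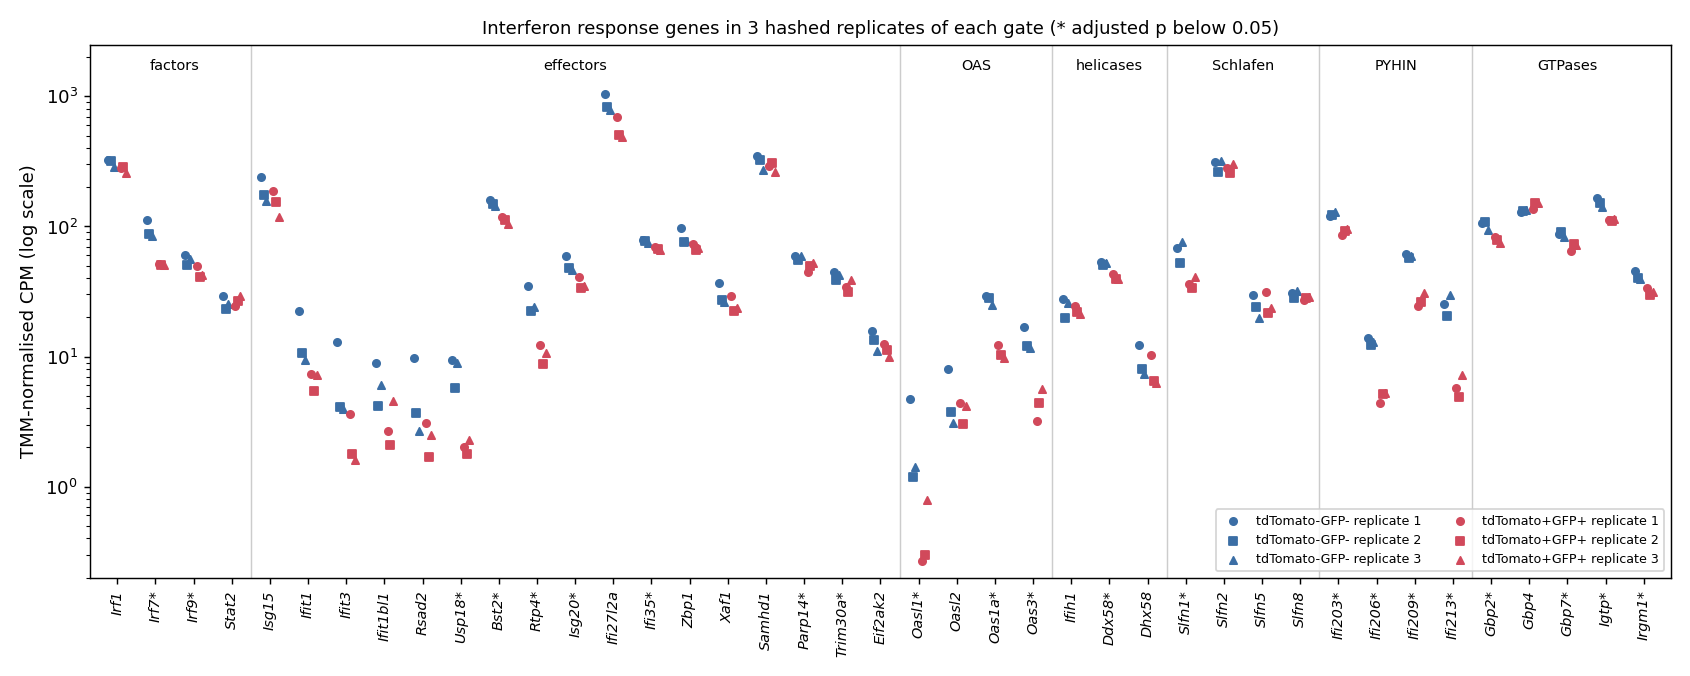
Normalised level of each gene (vertical axis, CPM on a log scale) in replicates 1 to 3 of the tdTomato-GFP- gate (blue) and the tdTomato+GFP+ gate (red), with genes grouped by role along the horizontal axis and an asterisk on the 22 with an adjusted p below 0.05. For Irf7 the blue points, between 84.9 and 113 CPM, lie above the red ones, between 50.5 and 51.3 CPM, whereas for Samhd1 both sets overlap.

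Among the 4 transcription factors, Irf7 and Irf9 were lower in the tdTomato+GFP+ gate, and the median log2 fold change of the 4 was -0.25. In replicates 1, 2 and 3, the order used throughout, Irf7, the factor that amplifies type I interferon production and response, stood at 113, 88.2 and 84.9 CPM in the tdTomato-GFP- gate and 51.3, 50.6 and 50.5 CPM in the tdTomato+GFP+ gate (log2 ratio -0.91 ± 0.11 (SE), adjusted p = 0.000852). The means were 95.4 ± 15.4 and 50.8 ± 0.440 CPM (SD, n = 3), and the replicates of the gates did not overlap. Irf9, the DNA-binding partner of STAT2, had 60.8, 50.1 and 56.3 CPM against 49.8, 40.9 and 42.7 CPM (log2 ratio -0.34 ± 0.09 (SE), adjusted p = 0.0322), again without overlap. Irf1, a factor induced by interferon gamma, had the most UMIs of the 4, at 322, 320.1 and 284 CPM against 279.9, 288 and 257 CPM, and its replicates overlapped (log2 ratio -0.17 ± 0.07 (SE), adjusted p = 0.103). Stat2 had a log2 fold change of 0.05 with an adjusted p of 0.802.

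Of the 17 antiviral effectors tested, 7 were lower, with a median log2 fold change of -0.44 over the 17. Usp18, the protease that removes ISG15 from proteins and damps the type I receptor, had 9.35, 5.74 and 8.85 CPM in the tdTomato-GFP- gate and 2.01, 1.79 and 2.29 CPM in the tdTomato+GFP+ gate (log2 ratio -1.99 ± 0.24 (SE), adjusted p = 0.00065). Rtp4, a receptor-transporting protein, had 34.7, 22.6 and 24.2 CPM against 12.2, 8.73 and 10.6 CPM (log2 ratio -1.41 ± 0.20 (SE), adjusted p = 0.00267). Bst2, the tetherin that holds budding virions at the cell surface, had 159, 150.0 and 144 CPM against 119, 111 and 105 CPM (log2 ratio -0.44 ± 0.06 (SE), adjusted p = 0.00159). In each of these 3 genes the lowest tdTomato-GFP- replicate was above the highest tdTomato+GFP+ replicate, and the fold was far larger for Usp18 and Rtp4 than for Bst2. The exonuclease gene Isg20 had 59.3, 47.8 and 46.2 CPM against 41.1, 33.5 and 34.9 CPM (log2 ratio -0.50 ± 0.12 (SE), adjusted p = 0.0165), and Ifi35 had 78.3, 77.6 and 75.04 CPM against 69.7, 67.6 and 66.2 CPM (log2 ratio -0.18 ± 0.05 (SE), adjusted p = 0.0234). The ADP-ribosyltransferase gene Parp14 had 59.1, 55.6 and 59.8 CPM against 44.9, 49.4 and 52.01 CPM (log2 ratio -0.25 ± 0.06 (SE), adjusted p = 0.0214). Replicates did not overlap for these 3 genes either, but their differences were smaller. Trim30a, of the tripartite motif family, was closest to the threshold, with 44.7, 39.1 and 42.3 CPM against 34.1, 31.6 and 38.9 CPM and an adjusted p of 0.0485.

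Ifi27l2a, a small membrane protein gene, had the most UMIs of all 43 genes, at 1046, 834 and 781 CPM in the tdTomato-GFP- gate and 695, 507 and 485 CPM in the tdTomato+GFP+ gate (log2 ratio -0.66 ± 0.18 (SE), adjusted p = 0.0527). The replicates did not overlap, and replicate 1 was the highest in both gates. Isg15, the ubiquitin-like modifier, showed the same order of replicates, with 239, 174 and 156 CPM against 186, 155 and 117 CPM (log2 ratio -0.31 ± 0.24 (SE), adjusted p = 0.416), and here the gates overlapped. Ifit1 and Ifit3, whose products bind viral RNA, had 22.4, 10.6 and 9.49 CPM against 7.39, 5.43 and 7.26 CPM and 13.01, 4.10 and 3.98 CPM against 3.63, 1.79 and 1.59 CPM. Their log2 fold changes were -1.16 and -1.73, with adjusted p-values of 0.0827 and 0.102. In both genes replicate 1 of the tdTomato-GFP- gate stood far above the other replicates. Replicate 1 was the highest of its gate in both gates for 22 of the 43 genes, against 22.4% of the 11675 genes with a mean of at least 1 CPM.

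The deposited cell table numbers the replicates of both gates alike, and deviations of same-numbered replicates correlated weakly (r = 0.264, 0.148 and 0.275). Whether equal numbers mark a pairing was not tested. The comparison was also fitted with the replicate number as a block. With the block, 31 of the 41 genes were lower (17.4% of all genes tested) and 1 was higher (17.3%). The 9 added genes were Ifi27l2a (adjusted p = 4.6e-06), Ifit3 (0.000818), Isg15 (0.00254), Irf1 (0.00623), Zbp1 (0.00691), Ifit1bl1 (0.0158), Xaf1 (0.0177), Ifit1 (0.0233) and Rsad2 (0.0241), by the same edgeR test with the block. The gene that was higher was Gbp4 (0.0281). All 22 genes lower without the block were lower with it.

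Of the 4 genes of the OAS family, some members of which make the oligoadenylates that activate RNase L, 3 were lower. Oas1a had 29.3, 28.2 and 25.01 CPM in the tdTomato-GFP- gate and 12.2, 10.4 and 9.75 CPM in the tdTomato+GFP+ gate (log2 ratio -1.37 ± 0.11 (SE), adjusted p = 0.000125), with means of 27.5 ± 2.24 and 10.8 ± 1.29 CPM (SD, n = 3). Oas3 had 16.9, 11.996 and 11.5 CPM against 3.22, 4.39 and 5.67 CPM (log2 ratio -1.61 ± 0.22 (SE), adjusted p = 0.00145). Both genes separated the gates without overlap. Oasl1 was measured near the limit of these sums, at 4.68, 1.19 and 1.41 CPM against 0.269, 0.299 and 0.796 CPM (log2 ratio -2.55 ± 0.71 (SE), adjusted p = 0.0356). Without tdTomato-GFP- replicate 1, its log2 fold change was -1.53 and its adjusted p 0.0954. Oasl2 had a log2 fold change of -0.45 (adjusted p = 0.444). Among the 3 helicases that sense viral RNA in the cytosol, Ddx58, which encodes RIG-I, was lower, with 53.3, 50.9 and 52.8 CPM against 42.8, 39.2 and 39.2 CPM (log2 ratio -0.38 ± 0.06 (SE), adjusted p = 0.00175). Ifih1 (-0.12, adjusted p = 0.563) and Dhx58 (-0.32, adjusted p = 0.423) did not pass the test.

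All 4 PYHIN genes, which encode nuclear proteins that bind DNA through a HIN domain, were lower in the tdTomato+GFP+ gate, with a median log2 fold change of -1.26. Ifi213 had 25.5, 20.6 and 29.6 CPM in the tdTomato-GFP- gate and 5.77, 4.89 and 7.26 CPM in the tdTomato+GFP+ gate (log2 ratio -2.10 ± 0.18 (SE), adjusted p = 0.000222). Ifi206, the gene with the nearly identical promoter stretch, had 13.9, 12.3 and 12.96 CPM against 4.43, 5.14 and 5.27 CPM (log2 ratio -1.39 ± 0.12 (SE), adjusted p = 0.000172). Ifi209 had 61.9, 57.4 and 59.1 CPM against 24.6, 26.5 and 30.9 CPM (log2 ratio -1.12 ± 0.08 (SE), adjusted p = 9.63e-05), the smallest adjusted p of the 43 genes. Ifi203 differed less, at 119.6, 122 and 128 CPM against 85.4, 92.8 and 95.3 CPM (log2 ratio -0.44 ± 0.06 (SE), adjusted p = 0.00121). No PYHIN gene had overlapping replicates, where 21.5% of all genes tested were lower without overlap. Of the 4 Schlafen genes, a family tied to T cell quiescence and growth control, Slfn1 was lower, with 68.4, 52.6 and 75.4 CPM against 36.1, 33.95 and 40.7 CPM (log2 ratio -0.83 ± 0.14 (SE), adjusted p = 0.00655). Slfn2, the Schlafen gene with the most UMIs, had 314, 264 and 321 CPM against 283, 256 and 303.2 CPM, with overlap (adjusted p = 0.499). Slfn5 and Slfn8 had log2 fold changes of 0.02 and -0.10 (adjusted p = 0.971 and 0.34).

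Of the 5 GTPase genes, whose products act on pathogen-containing vacuoles and are classical targets of interferon gamma, 4 were lower, with log2 fold changes between -0.45 and -0.31. Igtp had 165, 151 and 142 CPM in the tdTomato-GFP- gate and 112, 109 and 113 CPM in the tdTomato+GFP+ gate (log2 ratio -0.45 ± 0.06 (SE), adjusted p = 0.00131). Gbp2 had 106, 109 and 94.7 CPM against 82.3, 78.3 and 74.7 CPM (log2 ratio -0.40 ± 0.07 (SE), adjusted p = 0.00334), and Gbp7 had 87.9, 90.01 and 82.99 CPM against 64.7, 73.7 and 72.4 CPM (log2 ratio -0.31 ± 0.06 (SE), adjusted p = 0.00868). Irgm1 had 45.3, 39.9 and 39.1 CPM against 33.8, 29.8 and 31.5 CPM (log2 ratio -0.40 ± 0.08 (SE), adjusted p = 0.00707). The gates did not overlap in any of these 4. The exception was Gbp4, the gene with the most UMIs of the 5, at 130.2, 132 and 135 CPM against 137, 152 and 151 CPM, where every tdTomato+GFP+ replicate was above every tdTomato-GFP- replicate (log2 ratio 0.15 ± 0.06 (SE), adjusted p = 0.0839).

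Leaving out 1 replicate at a time gave 16 to 22 genes lower, and the lowest number came without tdTomato+GFP+ replicate 2. Irf9, Isg20, Ifi35, Parp14, Trim30a and Oasl1 lost the call in at least 1 of these fits, most often without tdTomato+GFP+ replicate 2 or tdTomato-GFP- replicate 1, and the other 16 genes kept it in all 6. The tdTomato-GFP- gate also holds cells with a Foxp3 UMI. When these were left out, an alternative chosen after seeing the data, 17 genes were lower (13.7% of all genes tested) and 1, Gbp4, was higher (13.2%), and 16 of the 17 were among the 22. Gbp7 moved most, to a log2 fold change of -0.01.

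Added up, the 43 genes made 4204, 3530 and 3438 CPM in the tdTomato-GFP- replicates (mean 3724 ± 418, SD, n = 3) and 3069, 2772 and 2762 CPM in the tdTomato+GFP+ replicates (2868 ± 174), a ratio of 0.770. Ifi27l2a alone gave 22.2% of these UMIs, followed by Samhd1 with 9.2%, Irf1 with 8.8% and Slfn2 with 8.5%, so the sum follows a few genes, and without Ifi27l2a the ratio was 0.811. The sum also varied between clusters. In the tdTomato-GFP- gate it averaged 5391 ± 667 CPM in cluster 5, 4941 ± 1400 CPM in cluster 9, 4217 ± 516 CPM in cluster 15 and 4094 ± 195 CPM in cluster 4, but 2648 ± 208 CPM in cluster 10 and 2405 ± 200 CPM in cluster 1 (SD, n = 3). The clusters are the authors' and may have been made with these genes, so the levels by cluster are a description without a test.

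**Figure D2:**
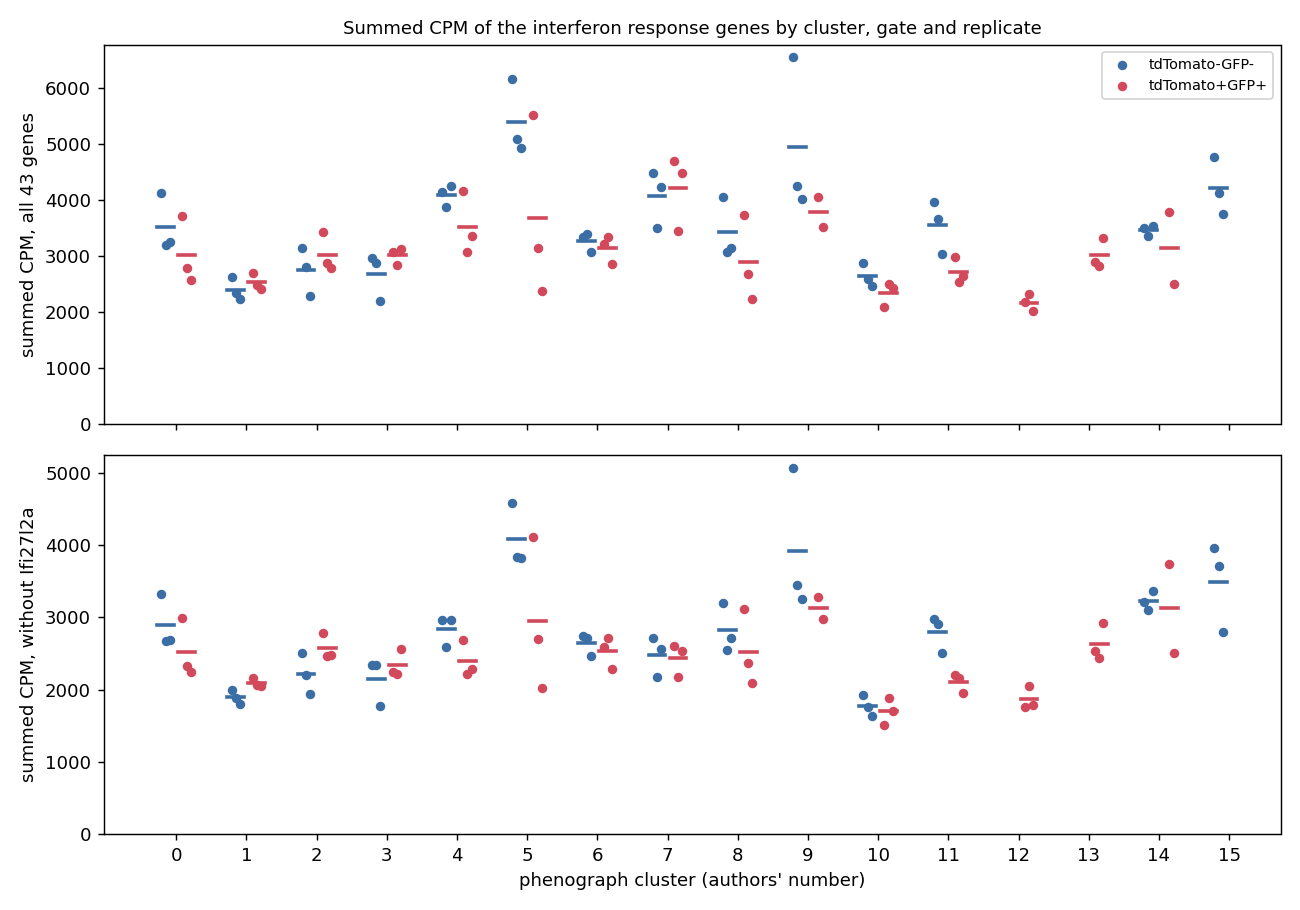
Summed CPM of the 43 genes (upper panel) and of the same genes without Ifi27l2a (lower panel) by cluster and gate; each point is a replicate and each bar the mean of the replicates. In cluster 5 the tdTomato-GFP- mean was 5391 CPM, while the tdTomato+GFP+ replicates were spread around a mean of 3682 ± 1639 CPM.

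Within the tdTomato-GFP- gate, the cluster with the highest mean level differed between genes, among the 13 clusters with enough cells and depth to rank. Cluster 9 held the highest level of 20 genes, among them all 4 PYHIN genes, Oasl1 and Oasl2, Ifit1, Ifit3, Usp18, Rtp4 and Slfn1. Cluster 5 held that of 13, among them Irf1, Stat2, Isg15, Oas1a, Samhd1 and 4 of the 5 GTPase genes. Cluster 15 held that of 9, among them Irf7, the 3 helicases and Oas3, and cluster 7 that of Ifi27l2a. For 31 of the 43 genes, however, the replicates of the highest cluster overlapped those of the next one, as for Ifit1, Isg15 and Irf7. They did not for 12, which were Eif2ak2, Gbp2, Gbp7, Irf1, Oas1a and Samhd1 in cluster 5, Ifi213, Slfn1, Slfn5 and Usp18 in cluster 9, and Ddx58 and Ifit1bl1 in cluster 15. The lowest level lay in cluster 1 for 18 genes and in cluster 10 for 13. The same counts were not made over all genes, so these describe the list only. Cluster 15 had 26 cells in its smallest tdTomato-GFP- replicate.

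The range between clusters was wide for single genes. Ifi213 ranged from 98.5 ± 15.4 CPM in cluster 9 to 3.19 ± 3.22 CPM in cluster 1 (SD, n = 3, as for all levels in these sentences), and Slfn1 from 182 ± 40.95 CPM to 19.9 ± 9.18 CPM. Ifi209 had 109 ± 32.5 CPM in cluster 9 and 95.2 ± 4.59 CPM in cluster 5, which did not differ beyond their spread, but 13.99 ± 9.49 CPM in cluster 1. Oas1a was highest in cluster 5, at 59.2 ± 7.42 CPM, with 21.7 ± 12.1 CPM in cluster 9 and 10.9 ± 4.38 CPM in cluster 1. Irf1 and Samhd1 were highest in cluster 5 as well. Irf1 had 567 ± 54.7 CPM there and 139.5 ± 13.5 CPM in cluster 7, and Samhd1, the enzyme that hydrolyses deoxynucleotide triphosphates, had 605 ± 99.6 CPM there and 136 ± 16.3 CPM in cluster 10. Igtp had 258 ± 45.4 CPM in cluster 5 against 88.2 ± 18.5 CPM in cluster 10. Irf7 had 160.2 ± 31.5 CPM in cluster 15, 138 ± 87.1 CPM in cluster 9 and 126 ± 13.9 CPM in cluster 4, levels that overlapped, and was lowest in cluster 10, at 39.5 ± 25.9 CPM. Slfn2 had its lowest level in cluster 5, at 211 ± 33.6 CPM, and its highest in cluster 15, at 377 ± 39.9 CPM.

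To hold the make-up of the gates equal, the same number of cells per cluster and replicate number was drawn from each gate. Of the 40 genes tested, 5 were then lower in the tdTomato+GFP+ gate and 0 higher, where 1.75% of the 10657 genes tested were lower and 0.976% higher. The median log2 fold change of the 40 was -0.22 against 0.00 over all genes, and 14 passed at an unadjusted p below 0.05, against 15.9% of all genes. The 5 genes were Irf7, Rtp4, Oas1a, Ifi209 and Ifi213. Irf7 had 95.1, 84.5 and 85.3 CPM in the tdTomato-GFP- draw and 52.9, 56.4 and 51.1 CPM in the tdTomato+GFP+ draw (log2 ratio -0.72 ± 0.08 (SE), adjusted p = 0.00347). Oas1a had 20.96, 22.1 and 21.4 CPM against 10.97, 11.2 and 11.1 CPM (log2 ratio -0.95 ± 0.11 (SE), adjusted p = 0.00536). Ifi213 had 15.6, 17.3 and 21.8 CPM against 7.46, 8.15 and 9.94 CPM (log2 ratio -1.09 ± 0.17 (SE), adjusted p = 0.0176). In all 3 genes the gates stayed apart in every replicate, which held in the lower direction for 14 of the 40 (35.0%) and for 11.6% of all genes. Ifi209 had 43.8, 46.8 and 49.5 CPM against 28.5, 31.4 and 35.5 CPM (log2 ratio -0.55 ± 0.10 (SE), adjusted p = 0.0231), and Rtp4 had 22.2, 18.9 and 19.01 CPM against 14.3, 10.1 and 9.94 CPM (log2 ratio -0.82 ± 0.16 (SE), adjusted p = 0.0334). With the replicate number as a block, 12 genes were lower (7.36% of all genes) and 1, Slfn5, was higher (5.34%). Without tdTomato-GFP- replicate 2, tdTomato-GFP- replicate 3 or tdTomato+GFP+ replicate 2, 2 genes were lower, Irf7 and Oas1a. Rtp4 also lost the call without tdTomato-GFP- replicate 1 or tdTomato+GFP+ replicate 3, and in a second draw of cells Ifi209 missed the threshold (adjusted p = 0.0556).

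The Il17a-rich clusters 1, 2, 3, 12 and 13 gave a different picture. Among their cells, 3 of 36 genes tested were lower in the tdTomato+GFP+ gate and 2 were higher, beside 6.45% and 4.75% of the 10075 genes tested, so the share of lower genes was near that of all genes. The median log2 fold change was -0.01 against 0.01 over all genes. Replicates did not overlap for 5 of the 36 (13.9%) in each direction, near the 14.5% lower and 14.8% higher over all genes. Slfn1 had 41.5, 35.6 and 36.02 CPM in the tdTomato-GFP- gate and 26.3, 24.9 and 30.9 CPM in the tdTomato+GFP+ gate (log2 ratio -0.51 ± 0.13 (SE), adjusted p = 0.0225). Ifi206 had 6.80, 9.72 and 5.003 CPM against 2.37, 3.35 and 3.33 CPM (log2 ratio -1.22 ± 0.34 (SE), adjusted p = 0.0287) and Ifi213 10.2, 5.67 and 7.004 CPM against 4.34, 2.55 and 4.25 CPM (log2 ratio -1.21 ± 0.35 (SE), adjusted p = 0.0332), both at low levels. Slfn5 was higher in the tdTomato+GFP+ gate, at 29.4, 19.3 and 24.2 CPM against 8.68, 6.48 and 6.004 CPM (log2 ratio 1.67 ± 0.24 (SE), adjusted p = 0.000319), with no overlap, whereas over all cells its log2 fold change was 0.02. Gbp4 was higher as well, at 143, 169.8 and 174 CPM against 122, 128 and 125 CPM (log2 ratio 0.38 ± 0.09 (SE), adjusted p = 0.00851). With the replicate block 5 genes were lower (9.59%), adding Irf7 and Ifi203, and 6 were higher (7.54%), adding Irf1, Isg15, Xaf1 and Samhd1. None of the 3 lower genes kept the call without tdTomato-GFP- replicate 1 or without tdTomato+GFP+ replicate 2, and Gbp4 lost it in the same fits, whereas Slfn5 kept it in all 6 fits that left out a replicate.

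Within single clusters, 11 of the 16 had at least 20 cells in every replicate of both gates. Over these 11, 18 pairs of a gene and a cluster were lower in the tdTomato+GFP+ gate and 6 were higher, in edgeR fits made separately for each cluster. From 18 genes of the list in cluster 11 to 38 in cluster 0 could be tested. No share over all pairs was computed for the counts of pairs, so the shares of all genes are given by cluster. In cluster 1, 1 of 31 was lower (3.23%), near the share of all genes, and in cluster 10, 1 of 27 (3.7%). In cluster 0, where 1.74% of genes were lower and 0.805% higher, Irf7 had 108, 115 and 109 CPM in the tdTomato-GFP- gate and 66.8, 54.8 and 63.4 CPM in the tdTomato+GFP+ gate (log2 ratio -0.89 ± 0.12 (SE), adjusted p = 0.000355), and Ifi209 (-0.63) and Ifi213 (-1.50) were lower too. Irf7 was also lower in cluster 1, where 3.88% of genes were lower, with 133, 90.5 and 61.3 CPM against 40.5, 41.7 and 46.5 CPM. The gene was lower in cluster 4 (background 0.921% lower, 0.644% higher), with 126, 114 and 143 CPM against 66.3, 85.99 and 53.5 CPM, and in cluster 6 (background 3.2% lower), with 102, 77.9 and 83.2 CPM against 59.6, 57.7 and 56.97 CPM. Its log2 fold changes in those 3 clusters were -1.28, -0.84 and -0.64, and it was below 0 in 9 of the 11 clusters. Ifi203 was below 0 in 11 of 11 clusters, with no call in any, Oas1a in 9 of the 9 and Ifi213 in 5 of the 5 where they could be tested.

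Other lower pairs were Ifi213 (-1.28), Oas1a (-1.37) and Igtp (-0.48) in cluster 6, Rtp4 in cluster 4 (-1.50), Slfn1 in cluster 2 (-0.71), where 2.75% of genes were lower, Ifi209 in cluster 11 (-1.55; 2.07% lower, 1.93% higher over all genes) and Ifi27l2a in cluster 10 (2.08% and 1.79%). Ifi27l2a had 966, 847 and 856 CPM against 596, 637 and 753 CPM there (log2 ratio -0.44 ± 0.09 (SE), adjusted p = 0.00302). With the replicate block, Slfn1 in cluster 2 (adjusted p = 0.0538) and Ifi209 in cluster 11 (adjusted p = 0.111) lost the call. The higher pairs were Slfn5 in clusters 1, 2 and 3, Samhd1 in clusters 2 (0.37) and 6 (0.46), and Gbp4 in cluster 2 (0.50), where 2.2%, 2.29%, 1.78% and 2% of genes were higher in clusters 1, 2, 3 and 6. Slfn5 had 6.72, 6.47 and 3.83 CPM in the tdTomato-GFP- gate and 31.7, 18.5 and 23.8 CPM in the tdTomato+GFP+ gate in cluster 1, 11.5, 8.03 and 4.55 CPM against 27.5, 19.6 and 25.5 CPM in cluster 2, and 6.22, 5.23 and 11.3 CPM against 33.3, 20.1 and 26.2 CPM in cluster 3. In each of these 3 clusters every tdTomato+GFP+ replicate was above every tdTomato-GFP- replicate. The same held for 12.2%, 11% and 10.4% of all genes tested in clusters 1, 2 and 3. No gene of the list was called in cluster 3 as lower (3.33% of genes) or at all in clusters 7 (0.118% lower, 0.395% higher) and 8 (0.456% lower, 0.274% higher). The number of lower pairs was 8 without tdTomato-GFP- replicate 1, 5 without tdTomato+GFP+ replicate 2 and 30 without tdTomato+GFP+ replicate 1, and the number of higher pairs was 2 without tdTomato-GFP- replicate 1 or tdTomato-GFP- replicate 3.

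In cluster 5, 5 of the 30 genes tested were lower in the tdTomato+GFP+ gate and 0 higher, where 2.2% of genes were lower and 1.51% higher. Irf1 had 613, 587 and 525 CPM in the tdTomato-GFP- gate and 423, 373 and 319 CPM in the tdTomato+GFP+ gate (log2 ratio -0.66 ± 0.14 (SE), adjusted p = 0.0142). Oas1a had 50.2, 64.5 and 65.9 CPM against 32.5, 3.62 and 8.87 CPM (log2 ratio -2.52 ± 0.48 (SE), adjusted p = 0.00492). Ifi209 had 94.3, 102 and 93.4 CPM against 65.1, 36.2 and 31.04 CPM (log2 ratio -1.31 ± 0.26 (SE), adjusted p = 0.0064). None of these overlapped, and for Oas1a and Ifi209 tdTomato+GFP+ replicate 1 lay well above the other two. Ifih1, the sensor of long double-stranded RNA, had 36.4, 28.9 and 28.7 CPM against 10.8, 7.23 and 8.87 CPM (-1.92), and Isg20 was the fifth (-0.97), and with the replicate block their adjusted p-values were 0.0517 and 0.0526. The tdTomato+GFP+ cells of this cluster number 162, with 24 in the smallest replicate. Their replicates sum to 94360, 293865 and 243935 UMIs. The tdTomato+GFP+ values of Oas1a and Ifih1 thus rest on a few UMIs per replicate, and the size of their folds is uncertain. In fits without tdTomato+GFP+ replicate 2 or without tdTomato+GFP+ replicate 3, Irf1, Isg20, Ifih1 and Ifi209 were not called. Oas1a was not called without tdTomato+GFP+ replicate 2, Irf1 not without tdTomato-GFP- replicate 2, and Isg20 not without tdTomato-GFP- replicate 1 or 2.

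Whether the gate difference in cluster 5 differed from that in clusters 1, 2, 3, 12 and 13 was tested as an interaction. Each of the 6 replicates gave a sum for both sets of cells, 12 sums in all, and the fit held the replicate as a term. For 7 of the 36 genes tested it was lower in cluster 5 and for 0 higher, where 2.16% of the 9316 genes tested were lower and 2.02% higher. The genes were Irf1, Slfn5, Samhd1, Ifih1, Oas1a, Ifi209 and Slfn8. The difference between the log2 fold changes was -0.90 ± 0.16 (SE) for Irf1 (adjusted p = 0.000231), which had -0.66 in cluster 5 and 0.20 in the other clusters, and -2.29 ± 0.44 (SE) for Slfn5 (adjusted p = 0.000734), which had -0.66 and 1.67. For Samhd1 it was -0.66 ± 0.16 (SE) (adjusted p = 0.009), with -0.39 and 0.23. These 3 genes thus had opposite signs in the 2 sets of cells, but not every sign was called without the replicate block. Samhd1 was not called in the fit of either set alone. Irf1 was not called in that of clusters 1, 2, 3, 12 and 13, and Slfn5 not in that of cluster 5. Ifih1 also had opposite signs, with -1.92 in cluster 5 and a value above 0, not called, in the other clusters. Oas1a was below 0 in both (-2.52 and -0.47). The median of the interaction over the 36 genes was -0.63, against -0.04 over all genes, and 17 passed at an unadjusted p below 0.05, against 14.7% of all genes. The number of lower genes was 14 without tdTomato+GFP+ replicate 1, 4 without tdTomato+GFP+ replicate 2 and 2, Irf1 and Slfn5, without tdTomato+GFP+ replicate 3.

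**Figure D3:**
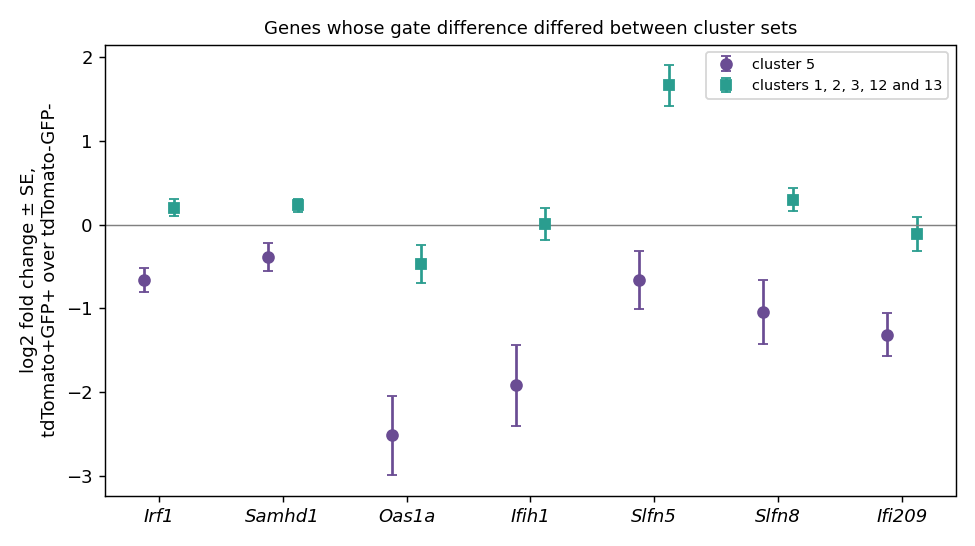
Log2 fold change between the gates, tdTomato+GFP+ over tdTomato-GFP-, with its SE (vertical axis) for the 7 genes whose gate difference differed between cluster 5 (purple circles) and clusters 1, 2, 3, 12 and 13 (green squares). For Irf1, Samhd1, Slfn5 and Ifih1 the circles lie below 0 and the squares above it.

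Within the tdTomato-GFP- gate, cells with at least 1 Foxp3 UMI had higher levels of many interferon response genes than cells with none. The comparison used 2194 cells with and 7915 without such a UMI, summed per replicate, with the replicate as a block. Of the 41 genes tested 22 were higher and 3 lower, where 12.2% of the 10946 genes tested were higher and 11.1% lower. The median log2 fold change of the 41 was 0.39 against -0.00 over all genes. The groups did not overlap for 21 of the 41 (51.2%) as higher and 3 (7.32%) as lower, against 18.7% and 18.6% of all genes. The 43 genes summed to 5468, 4707 and 4807 CPM in cells with a Foxp3 UMI (mean 4994 ± 414, SD, n = 3) and to 3832, 3159 and 3124 CPM in cells without (3372 ± 399). Cluster 5 held 53.6% of the former and 4.06% of the latter, and the median cell had 3681 against 3901 UMIs. A Foxp3 UMI can also come from free RNA in a droplet, and its part was not tested. The cells of this comparison are those of the tdTomato-GFP- gate above, so the results are not independent of each other and values are only set side by side.

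The factors parted in this comparison. Irf1 had 484, 489 and 442 CPM in cells with a Foxp3 UMI and 274, 269 and 249 CPM in cells without (log2 ratio 0.84 ± 0.05 (SE), adjusted p = 2.12e-07), whereas Irf7 had 117, 88.7 and 76.4 CPM against 113, 88.9 and 87.3 CPM (log2 ratio -0.03 ± 0.07 (SE), adjusted p = 0.97). The groups did not overlap for Irf1 and did for Irf7. Irf9 (0.40) and Stat2 (0.54) were higher too. All 5 GTPase genes were higher, with log2 fold changes of 1.04 for Gbp7, 0.72 for Igtp, 0.49 for Irgm1, 0.47 for Gbp4 and 0.39 for Gbp2. Gbp7 had 140.3, 141 and 162 CPM with and 72.3, 74.5 and 65.1 CPM without a Foxp3 UMI (adjusted p = 9.29e-07), and Igtp had 249, 213 and 201 CPM against 140.0, 133 and 129 CPM (adjusted p = 2.86e-06), neither with overlap.

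Of 18 effectors tested, 10 were higher and 0 lower. Samhd1 had 558, 506 and 465 CPM in cells with a Foxp3 UMI and 288, 268 and 226 CPM in cells without (log2 ratio 0.97 ± 0.06 (SE), adjusted p = 7.35e-08). Ifi27l2a had 1443, 1325 and 1325 CPM against 931, 684 and 658 CPM (log2 ratio 0.86 ± 0.07 (SE), adjusted p = 0.000125). Isg20 had 82.7, 76.002 and 77.1 CPM against 52.5, 39.3 and 39.2 CPM (log2 ratio 0.83 ± 0.09 (SE), adjusted p = 1.42e-05). These groups did not overlap. Eif2ak2, which encodes the RNA-activated kinase PKR, had 21.9, 23.2 and 17.7 CPM against 13.9, 10.4 and 9.53 CPM (log2 ratio 0.87 ± 0.15 (SE), adjusted p = 0.000758). Isg15 was higher as well (0.46), but its groups overlapped, at 274, 212 and 238 CPM against 229, 163 and 138 CPM, and without the block its adjusted p was 0.229. The same held for Rtp4 (0.47; without the block 0.187), and Slfn5 lost its call without the block too (0.46; 0.0704). The remaining 4 higher effectors were Zbp1 (0.46), Parp14 (0.32), Bst2 (0.24) and Ifi35 (0.23). Usp18 (0.05) and Ifit1 (0.53) did not pass the test, with adjusted p-values of 0.931 and 0.54.

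The OAS, Schlafen and PYHIN families each split. Oas1a was higher in cells with a Foxp3 UMI, at 46.2, 57.5 and 53.9 CPM against 24.3, 19.04 and 18.4 CPM (log2 ratio 1.28 ± 0.14 (SE), adjusted p = 9.37e-05), and Oas3 was lower, at 9.43, 7.41 and 6.14 CPM against 19.3, 13.6 and 12.9 CPM (log2 ratio -0.99 ± 0.16 (SE), adjusted p = 0.000618). Slfn1 and Slfn2 were lower, Slfn1 at 42.6, 31.2 and 49.8 CPM against 76.8, 59.98 and 81.8 CPM (log2 ratio -0.85 ± 0.08 (SE), adjusted p = 8.41e-06) and Slfn2 at 231, 178 and 229 CPM against 341, 294 and 344 CPM (log2 ratio -0.63 ± 0.06 (SE), adjusted p = 7.42e-06). Slfn8 was higher (0.62). None of these 4 genes with values by replicate overlapped between the groups. Among the PYHIN genes Ifi209 was higher, at 78.5, 94.5 and 92.8 CPM against 57.2, 46.004 and 51.6 CPM (log2 ratio 0.75 ± 0.11 (SE), adjusted p = 0.0013), while Ifi203 (0.02), Ifi206 (-0.17) and Ifi213 (-0.18) did not pass. Set side by side, Oas1a had a log2 fold change of 1.28 here and -1.37 between the gates, and Irf7 had -0.03 and -0.91.

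**Figure D4:**
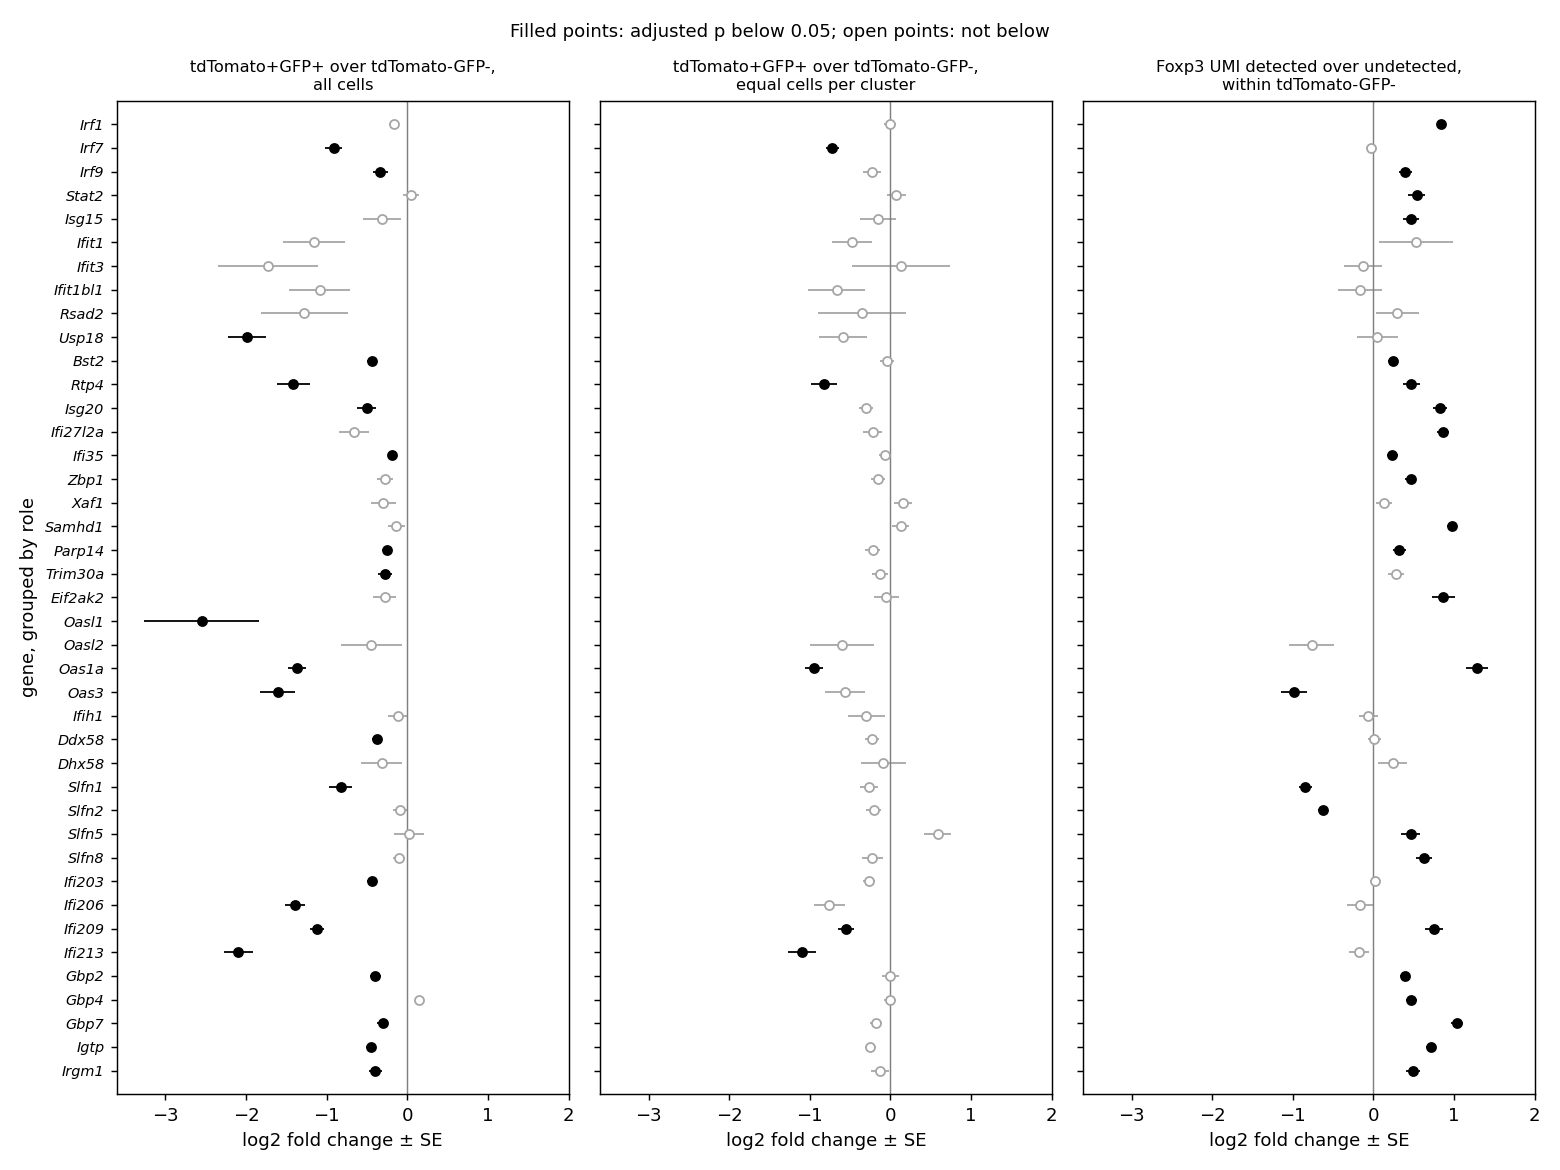
Log2 fold change with its SE (horizontal axes) of each gene, grouped by role, for tdTomato+GFP+ over tdTomato-GFP- with all cells (left), with equal cells per cluster (middle), and for cells with over cells without a Foxp3 UMI within the tdTomato-GFP- gate (right); filled points have an adjusted p below 0.05. Irf7 lies at -0.91, -0.72 and -0.03 in the 3 panels, and Oas1a at -1.37, -0.95 and 1.28.

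With equal numbers of cells per cluster and replicate in both groups, 10 of 36 genes were higher in cells with a Foxp3 UMI (5.71% of genes tested) and 2 were lower (5.87%), and Gbp2 turned to a log2 fold change of -0.01. Among cells outside cluster 5, 13 of 41 were higher (8.15%) and 3 lower (7.68%), and the summed level was 4826, 4257 and 4591 CPM against 3766, 3116 and 3093 CPM. The median cell there had 4603, 4045 and 3871 UMIs with and 3984, 3851 and 3907.5 UMIs without a Foxp3 UMI. The part of depth outside cluster 5 was not tested. With DESeq2 in place of edgeR, 14 genes were higher. Within cluster 5, 2 of 32 genes were higher, where 1.13% of the 6927 genes tested were, and 0 were lower (1.6%), and 5 passed at an unadjusted p below 0.05. Samhd1 had 739, 637 and 566 CPM with and 578, 523 and 366 CPM without a Foxp3 UMI (log2 ratio 0.39 ± 0.10 (SE), adjusted p = 0.0279), which overlap, and Gbp7 had 183, 177 and 194 CPM against 133, 133 and 73.2 CPM (log2 ratio 0.58 ± 0.16 (SE), adjusted p = 0.0407). Without the block neither was called (adjusted p = 0.391 and 0.107), and Samhd1 lost the call without any 1 of the 3 replicates and Gbp7 without replicate 1 or 3. With cells thinned to 2000 UMIs, Foxp3 UMIs were also read after thinning, so cells that lost theirs moved to the group without. That group then had 244, 131 and 61 cells, against 178, 100 and 43 before. In that fit 0 of 30 were called, and 0 passed at an unadjusted p below 0.05. The summed level in cluster 5 was 6291, 5265 and 5045 CPM in cells with a Foxp3 UMI, 5658, 4361 and 4404 CPM in tdTomato-GFP- cells without, and 5521, 3148 and 2378 CPM in tdTomato+GFP+ cells.

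Part of the expression lay in few cells. To compare cells at 1 depth, each was thinned to 2000 UMIs, and cells with at least 5 of 23 antiviral genes of the list were counted (Isg15, Ifit1, Ifit3, Ifit3b, Ifit1bl1, Rsad2, Usp18, Irf7, Oasl1, Oasl2, Oas1a, Oas3, Bst2, Rtp4, Stat2, Ifi44, Ifih1, Ddx58, Dhx58, Zbp1, Xaf1, Ifi27l2a and Isg20). Of 17732 cells 702 (3.96%) met this. In the tdTomato-GFP- replicates the count was 358 of 4880 cells, a share of 7.34% (exact 95% binomial interval 6.62 to 8.10), 113 of 2892, or 3.91% (3.23 to 4.68), and 66 of 1700, or 3.88% (3.02 to 4.91). In the tdTomato+GFP+ replicates it was 56 of 1682, or 3.33% (2.52 to 4.30), 69 of 4334, or 1.59% (1.24 to 2.01), and 40 of 2244, or 1.78% (1.28 to 2.42). These intervals cover counting error only. Every tdTomato-GFP- replicate was above every tdTomato+GFP+ replicate, replicate 1 was the highest in both gates, and tdTomato-GFP- replicate 1 held 51.0% of all such cells. The mean share was 5.04 ± 1.99% against 2.23 ± 0.953% (SD, n = 3), a ratio of 2.26. Without thinning the pooled shares were 19.1% and 9.85%.

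**Figure D5:**
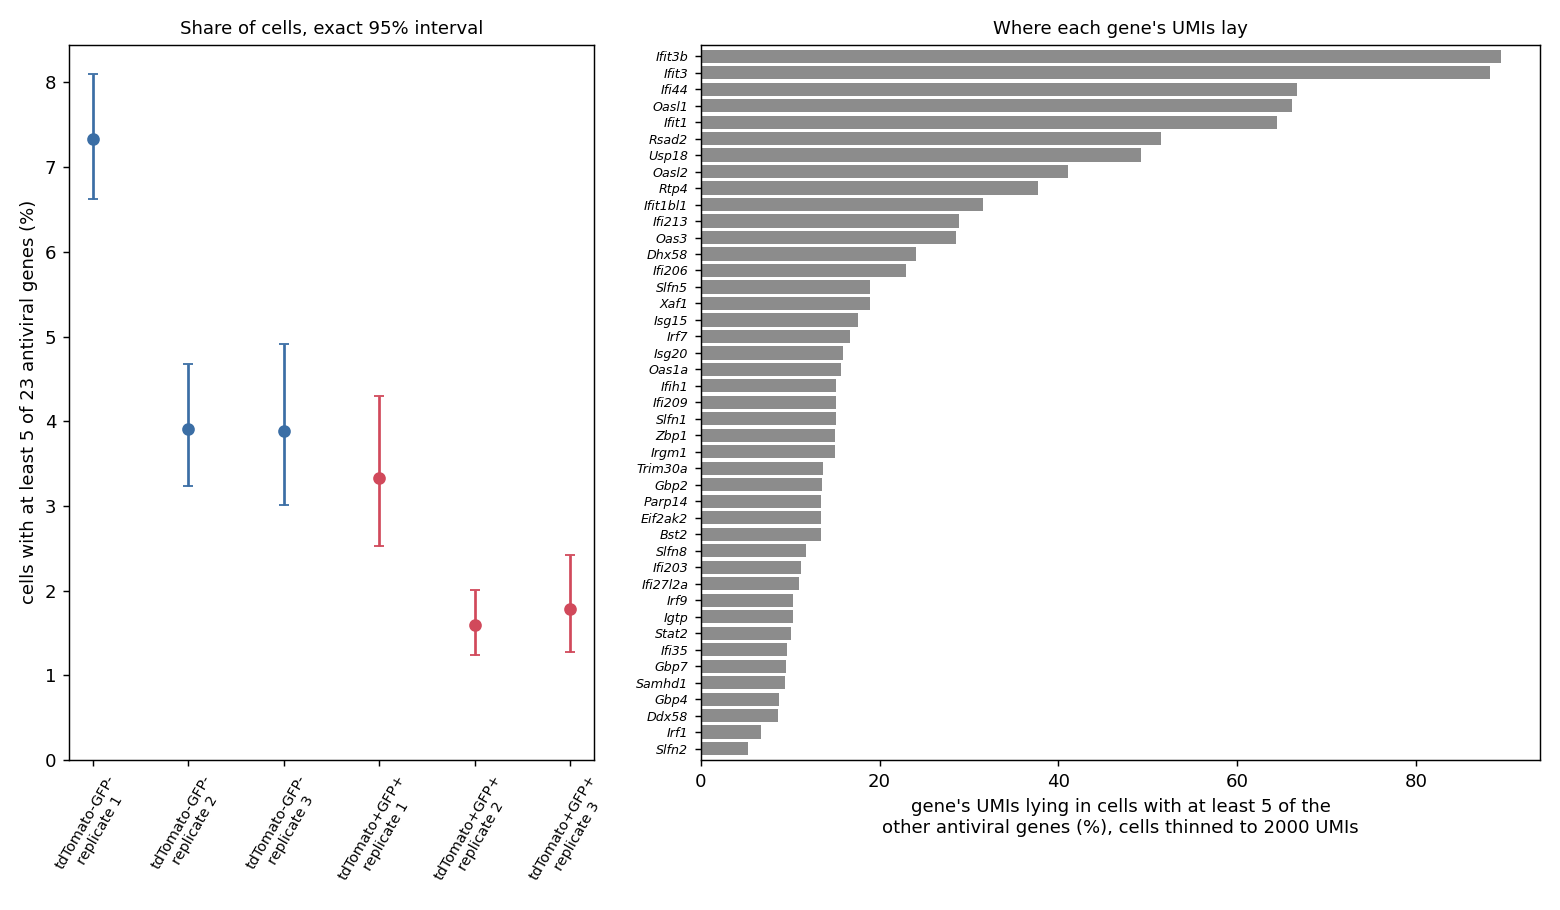
Left, share of cells (%) with at least 5 of the 23 antiviral genes in each replicate, with exact 95% binomial intervals, from cells thinned to 2000 UMIs. Right, percentage of each gene's UMIs that lay in cells with at least 5 of the other antiviral genes, from 89.5% for Ifit3b to 5.27% for Slfn2.

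By cluster, with the cells of both gates and all replicates pooled, the share of such cells was 12.9% in cluster 9, 9.21% in cluster 15 and 8.79% in cluster 5. It was 0.323% in cluster 12, where 1 of 310 cells qualified. Spread between replicates is not part of these pooled shares. In cluster 5 it was 9.36% of tdTomato-GFP- cells (131 of 1399) and 3.38% of tdTomato+GFP+ cells (5 of 148), and in cluster 0 it was 5.43% against 2.26%. The tdTomato-GFP- cells were also grouped by the Foxp3 UMIs that remained after thinning. The share was 9.48%, 5.41% and 6.98% with such a UMI and 6.89%, 3.55% and 3.33% without. The group without thus also holds cells that lost their Foxp3 UMIs by thinning. At 8 or more genes the order turned in replicate 1, with 1.54% (13 of 844 cells) against 2.60% (105 of 4036), while replicates 2 and 3 had 0.901% against 0.257% and 1.55% against 0.693%. The 6 CD4 T cell markers summed to 4048 CPM in the 702 cells with at least 5 of the genes and to 4487 CPM in the other cells. Markers of other cell types were present in both. The 8 B and plasma cell markers summed to 1291 against 1333 CPM, with 2 of them, Ms4a1 included, at 0 in the 702 cells, the 7 myeloid markers to 389 against 353 CPM and the 5 stromal markers to 85.9 against 57.6 CPM. Itgax and Xcr1, dendritic cell markers, were at 0 in the 702 cells and below 1 CPM in the others. Higher in the 702 cells were 3 of the 8 B and plasma cell markers, 4 of the 7 myeloid and 4 of the 5 stromal markers. Among them were Ighm (172 against 87.3 CPM), Lyz2 (156 against 77.2 CPM) and Col3a1 (16.9 against 3.78 CPM). Igkc (159 against 214 CPM), Igha (249 against 342 CPM) and C1qb (22.6 against 37.4 CPM) were lower in the 702 cells. The part of such RNA in the shares was not tested. Of the 7 Th17 markers 1, Il22, was higher in the 702 cells, and Il17a was lower (2244 against 5984 CPM). All 6 naive and central memory markers were higher, Ccr7 (359 against 175 CPM) among them. So were 6 of the 7 Treg markers, with Foxp3 at 244 against 148 CPM, but Ctla4 was lower (1864 against 2157 CPM). The Treg sums were 2579 and 2589 CPM. Of the 5 Th1 markers 3 were higher, with Ccl5 at 722 against 275 CPM, and Ifng was lower (192 against 230 CPM). The tdTomato-GFP- gate held 537 of the 702 cells and 9472 of all 17732. Its part in these values was not tested, and they are given without a test.

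The share of a gene's UMIs in such cells differed from gene to gene. Of their UMIs in thinned cells, Ifit3b had 89.5%, Ifit3 88.3%, Oasl1 66.1%, Ifit1 64.4%, Rsad2 51.4% and Usp18 49.2% in cells with at least 5 of the other antiviral genes. Ifi44 had 66.7%, from 12 UMIs in all. Rtp4 had 37.7%, Isg15 17.6%, Irf7 16.7% and Ifi27l2a 10.98%. At the other end, Samhd1 had 9.41%, Irf1 6.68% and Slfn2 5.27%, against 3.96% of all cells. Oasl1, Ifit3 and Rsad2, whose tdTomato-GFP- replicates had the largest SD relative to their mean, thus had most of their UMIs in few cells, while most UMIs of Irf1, Samhd1 and Slfn2 lay in the other cells.

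Other genes of the interferon pathway were read from a list made for this purpose. Between the gates with all cells, Ifng, which encodes interferon gamma, was the single tested gene among the 9 ligands and was lower in the tdTomato+GFP+ gate (-1.54 ± 0.17 (SE)), and it stayed lower with equal cells per cluster (-2.27). Of 5 receptor genes tested, 3 were lower and 0 higher, Ifnar1 (-0.45) of the type I receptor and Ifngr1 (-0.47) and Ifngr2 (-0.71) of the interferon gamma receptor. Of 6 signalling genes Jak1 (-0.21) and Stat4 (-0.19) were lower, and of 7 inhibitors Socs1 (-0.98), Socs3 (-1.24), Ptpn6 (-0.34) and Irf2bp2 (-0.43) were. Among 30 other interferon-induced genes tested, 12 were lower and 3 higher. The lower ones included the PYHIN genes Ifi208 (-1.61) and Ifi214 (-2.18), the GTPase genes Tgtp1 (-1.07) and Irgm2 (-0.56), and Ifit2 (-0.87), and the higher ones were the guanylate-binding protein genes Gbp6 (0.99), Gbp8 (0.57) and Gbp9 (0.42). With equal cells per cluster 2 of 29 were lower, Ly6a (-0.76) and Sp100 (-0.30), and 0 were higher.

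Between tdTomato-GFP- cells with and without a Foxp3 UMI, Ifng was lower in the former (-2.28), while Ifngr1 (0.46), Stat3 (0.33) and Jak1 (0.18) were higher. Of the 30 other interferon-induced genes, 12 were higher and 4 lower. The higher ones included the GTPase genes Iigp1 (1.61), Gbp3 (1.46) and Gbp5 (1.23) and the factor gene Irf8 (1.56). The lower ones were Ifi208 (-0.82) and the 3 interferon-induced transmembrane genes Ifitm1 (-5.11), Ifitm2 (-1.14) and Ifitm3 (-1.01), which encode proteins that block the entry of viruses.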

How the data were processed

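Single-cell RNA was sequenced from 3 hashed replicates of each of 2 sorted gates. The authors deposited UMI counts per cell and gene, made with Cell Ranger and Scanpy 1.7.2 on mm10 (GRCm38), per the submitters' processing notes; which of the 2 chemistries named in the labels' protocols was used is not given in the sources used here. The deposited cell table gives the replicate, the phenograph cluster and the fraction of a cell's hashtag counts that its main hashtag took, which was at least 0.8 in every assigned cell. The 3 hashtag columns, 43.8% of all UMIs, were left out, as were 4721 cells without a replicate, and 216 assigned cells have no cluster. No doublet caller was run. The T cell receptor table was not used.

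Counts were summed per replicate and tested with edgeR 4.0.16 (R 4.3.3, limma 3.58.1): filterByExpr with a minimum count of 10, TMM scaling, the two-sided quasi-likelihood test and Benjamini-Hochberg adjustment over all genes tested, at 0.05. CPM in gate and Foxp3 comparisons are TMM-normalised, and summed levels, marker levels and levels by cluster are plain CPM. Foxp3 was left out of the comparison that it defines. Thinning to 2000 UMIs kept 9472 tdTomato-GFP- and 8260 tdTomato+GFP+ cells and left out 637 and 505. Thinned cells were grouped by the Foxp3 UMIs that remained. The cell table numbers the replicates of each gate 1 to 3. Deviations from the gate mean of same-numbered replicates correlated weakly, with r = 0.264, 0.148 and 0.275 for numbers 1, 2 and 3. Other pairs had -0.287 to 0.0629, but deviations cancel out within a gate, which lowers the r of other pairs. Whether equal numbers mark a pairing was not tested, and the blocked fit is given where it changes a call. Alternatives were DESeq2 1.42.0, its size factors, no count filter, the block, thinning, other cells and leaving out replicates. The fits were tested on simulated data. Values by replicate are printed for every gene called in the gate comparison, for the gene with the most UMIs in each role group and for further genes called elsewhere. The genes, lists and clusters were chosen with earlier results of these data known. Promoter windows came from RefSeq tables and positions from the annotation of the same build. Values of some genes are not reported here.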

Additional observations from a re-analysis of the deposited data

Results flagged for a closer look

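For 7 genes the difference between the gates was itself different in cluster 5 and in clusters 1, 2, 3, 12 and 13, by the interaction term of the edgeR fit with Benjamini-Hochberg adjustment. The difference between the log2 fold changes was -0.90 for Irf1, -2.29 for Slfn5, -0.66 for Samhd1, -1.98 for Ifih1, -2.01 for Oas1a, -1.25 for Ifi209 and -1.38 for Slfn8. The tdTomato+GFP+ arm of cluster 5 rests on 162 cells, and its Oas1a and Ifih1 values rest on a few UMIs per replicate. Irf1 and Slfn5 kept the call in all 6 fits that left out a replicate, Samhd1 lost it in 1 (tdTomato+GFP+ replicate 3), and Oas1a, Ifih1, Ifi209 and Slfn8 lost it in several, each of them without tdTomato+GFP+ replicate 2 and without tdTomato+GFP+ replicate 3.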

How the results depend on the processing

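Of 963 repeats for single genes, 781 kept the call, 180 kept the direction only and 2 turned: Gbp2 at -0.0093 with equal cells per cluster in the comparison by Foxp3 UMI, and Gbp7 at -0.0093 in cluster 5 after thinning. With the replicate block, 52 of 56 single-gene calls held and 4 kept the direction only, all within single clusters; gene counts became 31 lower and 1 higher over all cells, 5 lower and 6 higher in clusters 1, 2, 3, 12 and 13, and 12 lower and 1 higher with equal cells, where 290 genes of any kind were called without it and 1353 with it. Without Foxp3 UMIs in the tdTomato-GFP- gate 1 gene was higher. By Foxp3 UMI, 14 (DESeq2), 10 (equal cells) and 13 (outside cluster 5) genes were higher; in cluster 5, 0 without the block and 0 after thinning. Without the count filter the interaction gave 12 genes, and single clusters 44 lower and 10 higher pairs. The summed ratio was 0.811 without Ifi27l2a. The ratio of shares was 2.04 at 4 genes, 4.31 at 8 and 1.80 unthinned, and at 8 genes it was 2.15 without tdTomato-GFP- replicate 1.

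Leaving out replicates gave 16 to 22 lower and 0 to 1 higher genes over all cells, 0 to 3 and 1 to 2 in clusters 1, 2, 3, 12 and 13, 2 to 6 lower with equal cells, 5 to 30 lower and 2 to 6 higher pairs in single clusters, 2 to 14 in the interaction, 16 to 23 higher and 3 lower by Foxp3 UMI, and 0 to 1 within cluster 5. With a replicate number left out of both gates, the summed ratio ran from 0.755 to 0.794 and that of shares from 2.19 to 2.31; leaving out 1 replicate of 1 gate gave shares a ratio of 1.74 to 2.99. The cause of these shifts was not tested. Ifit3b and Ifi44 were too shallow to test between the gates.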
